A study of Mus musculus with 9 samples.

Results

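Aminoacyl-tRNA synthetase messengers were followed in the mouse line 3T3-L1, fibroblast-like precursors of adipocytes (genotype WT per the labels). Of the 28965 genes in the table, 38 encode such an enzyme. Members were taken by gene symbol: 21 genes for enzymes of the cytosol, among them Gars and Kars, which each serve both the cytosol and mitochondria, and 17 genes with the suffix 2 for enzymes of mitochondria only. Poly(A) RNA was profiled in 9 libraries, 3 in each of 3 groups, after 24 h of treatment of confluent cells. Every group received the adipogenic cocktail of 0.1 µg/mL insulin, 30 µg/mL isobutylmethylxanthine and 0.1 µg/mL dexamethasone. The OA_T0 group also received 100 µM oleic acid bound to albumin together with 5 µM T0901317, which activates the liver X receptors (LXR). The OA group received the same oleic acid without the agonist, and the MDI group received the albumin vehicle. No group received T0901317 without oleic acid, so an action of the agonist alone cannot be told apart from its action in the presence of the acid. The cells are 1 clonal line in culture, and nothing in the labels tells if replicate libraries came from separate cultures, so p-values may reflect technical spread alone.

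These enzymes join each amino acid to its transfer RNA and so supply protein synthesis. Cytosolic and mitochondrial translation mostly use separate enzymes, all of them encoded in the nucleus. In mammals several cytosolic enzymes form a multisynthetase complex with the scaffold proteins Aimp1, Aimp2 and Eef1e1. When amino acids run short, or under other stresses, kinases phosphorylate the initiation factor eIF2, translation of the transcription factor ATF4 rises, and ATF4 activates genes of amino acid synthesis, transport and tRNA charging. From general knowledge of this response, 12 of the cytosolic genes were marked as reported ATF4 targets: Aars, Cars, Eprs, Gars, Iars, Lars, Mars1, Nars, Sars, Tars, Wars and Yars.

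ATF4 binds with C/EBP partners to a composite element, and its core TGATGNAA (N for any base) was searched on both strands of RefSeq promoter windows of the assembly GRCm38.p6. The windows run from 250 bases before to 50 bases after a gene's start, 300 bases in all, and 28 members had one. The core was found in 5 of 14 cytosolic synthetase genes and in 0 of 14 mitochondrial ones, against 4.51% of 27025 genes with a window and 2.71% of the 9911 tested genes with a window. It was the only motif searched, and it was chosen after the expression results were known. The 5 promoters that held it are printed 5′ to 3′ in the direction of the gene, whole for Aars, which holds the core at 2 places, and as 120 bases for the others, with the core in capitals. Only Yars has it in the printed direction; in the other promoters the capitals are its reverse complement.
Aars chr8:111033592-111033891 +: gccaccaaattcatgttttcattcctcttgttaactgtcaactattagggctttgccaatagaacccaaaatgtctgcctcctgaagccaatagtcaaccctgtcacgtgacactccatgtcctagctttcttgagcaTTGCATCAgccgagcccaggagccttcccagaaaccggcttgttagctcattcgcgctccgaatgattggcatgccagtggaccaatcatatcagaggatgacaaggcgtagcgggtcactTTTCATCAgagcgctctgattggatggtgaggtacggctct
Gars chr6:55037915-55038034 +: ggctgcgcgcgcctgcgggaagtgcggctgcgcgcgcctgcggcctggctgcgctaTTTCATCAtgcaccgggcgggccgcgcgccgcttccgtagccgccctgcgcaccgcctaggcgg
Iars chr13:49682060-49682179 +: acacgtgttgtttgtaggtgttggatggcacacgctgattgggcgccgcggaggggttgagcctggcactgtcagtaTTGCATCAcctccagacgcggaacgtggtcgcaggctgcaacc
Tars chr15:11399610-11399729 -: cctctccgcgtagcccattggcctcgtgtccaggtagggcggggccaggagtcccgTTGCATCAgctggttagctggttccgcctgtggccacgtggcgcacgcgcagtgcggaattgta
Yars chr4:129189833-129189952 +: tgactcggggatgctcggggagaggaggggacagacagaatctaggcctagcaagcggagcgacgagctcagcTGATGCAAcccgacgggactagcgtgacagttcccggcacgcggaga
Counted from the first transcribed base as 0, the core began at -112 and 9 in Aars, at -30 in Gars, at 7 in Iars, at -15 in Tars and at 3 in Yars. All 5 of these genes passed the expression test both in OA_T0 vs OA and in OA vs MDI, as did 4 of the 9 cytosolic genes whose window lacks the core. A match of letters is a description and shows no binding.

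The deposited values are read counts per gene that the authors normalised per library, so they are not whole numbers. Totals lay between 26.95 and 29.51 M per library, and depths estimated from the step between low values lay between 18.0 M fragments (OA_T0 replicate 3) and 59.9 M (MDI replicate 1). A ribosomal RNA gene, CT010467.1, made up 0.649% of the total in OA replicate 1 and 3.06% in OA_T0 replicate 3, against 4.40% to 5.96% in the other 7 libraries. Summed over 8 markers of preadipocytes, values were 185196 to 224186 in OA_T0, 209154 to 230863 in OA and 184225 to 210809 in MDI. The sum hides changes of single markers. Pdgfra stood highest in OA without overlap: it rose in OA vs MDI (log2 0.47) and fell in OA_T0 vs OA (log2 -0.65). Dlk1 rose in OA_T0 vs OA (log2 0.28), though its libraries overlapped. The remaining preadipocyte markers passed in no comparison. Markers of other cell types summed to 45.2 at most, with Adgre1 of macrophages and Myog of muscle at 0 in every library. Adipocyte markers summed to 2257 to 2615 in OA_T0, 3790.2 to 4655 in OA and 1725 to 2072 in MDI, so they stood highest in the group in which the cytosolic synthetases stood lowest. Of 5 such markers tested, Fabp4, Cd36 and Lipe rose in OA vs MDI and fell in OA_T0 vs OA. Pparg rose in OA_T0 vs OA, Fabp4 and Pparg rose in OA_T0 vs MDI, and Adipoq, the adipocyte hormone adiponectin, lay between 0 and 6.76 in every library. Their part in the synthetase results was not tested. In bulk samples, fewer cells of a type and less RNA per cell cannot be told apart. Abca1, an LXR target that exports cholesterol, had 7137, 7783 and 7104 in the OA_T0 libraries, 1186, 1119 and 999.5 in the OA libraries and 1182, 1029 and 973 in the MDI libraries. The 3 OA_T0 libraries lay far above the other 6.

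Each cytosolic enzyme gene except Tarsl2 was expressed above every mitochondrial one except Lars2, when values were divided by the length of the longest protein-coding transcript in kb (GENCODE M21). On this scale the mean over the 9 libraries ranged among cytosolic genes between 182 for Tarsl2, a second threonyl-tRNA synthetase, and 4065 for Eprs, the fused glutamyl-prolyl enzyme, with a median of 1702 per kb. Among mitochondrial genes without Lars2 it ranged between 41.1 for Mars2 and 411 for Iars2, with a median of 154 per kb. Lars2, the mitochondrial leucyl enzyme, stood at 19463 per kb. All 38 genes passed the filter on low values, a mean of at least 10 over the libraries, and were tested.

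**Figure D1:**
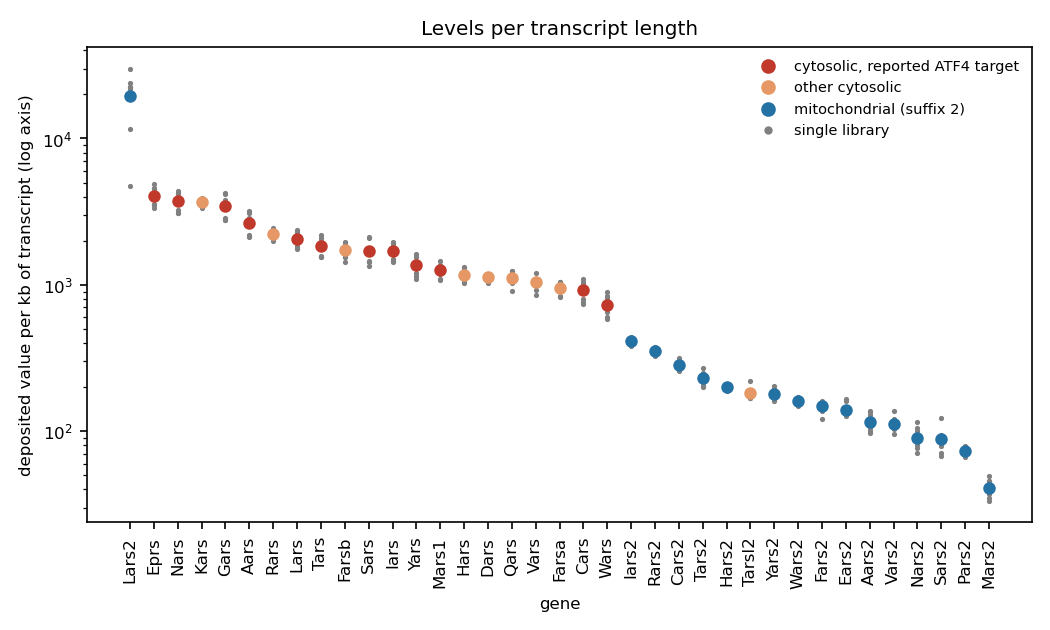
Mean deposited value per kb of transcript over 9 libraries (coloured points, log axis) for 37 of the 38 synthetase genes, with single libraries as grey points. Cytosolic genes centre on 1702 per kb and mitochondrial genes other than Lars2 on 154 per kb, while Lars2 stands apart at 19463 per kb.

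Most cytosolic synthetase genes were higher with T0901317 and oleic acid than with oleic acid alone, and lower with oleic acid than with vehicle, while most mitochondrial ones did not pass in either comparison. In OA_T0 vs OA, 15 of 21 cytosolic genes rose and 0 fell, where 8.27% of all 15002 tested genes rose and 6.84% fell. Their median log2 fold change was 0.33, against -0.00232 over all tested genes. In OA vs MDI, 14 of 21 fell and 0 rose, where 3.36% of all tested genes fell and 3.43% rose, with a median of -0.25 against 0.01 over all tested genes. Of the 12 reported ATF4 targets, 12 rose in OA_T0 vs OA (median 0.39) and 12 fell in OA vs MDI (median -0.30). Of the other 9 cytosolic genes, 3 rose in OA_T0 vs OA (median 0.15) and 2 fell in OA vs MDI (median -0.10). The counts for the reported targets and for the other 9 genes were added after the fits were seen. Members and lists were chosen with earlier results of these data known, so the split is a description. Both comparisons use the same 3 OA libraries, so a low value in OA enters each of them and the pair of results is not independent. Passing means an adjusted p below 0.05 in limma, on log2(value + 1), with the Benjamini-Hochberg adjustment over all tested genes. A difference between ATF4 targets and other genes was not tested, and neither was one between cytosolic and mitochondrial genes. Standard errors of the log2 fold changes were 0.06 (Dars) to 0.09 (Tarsl2) among cytosolic genes. Among mitochondrial genes they were 0.06 (Iars2) to 0.16 (Sars2), and 0.44 for Lars2, so precision was lower for some of them. Of 15 transcripts encoded in mitochondrial DNA, the ribosomal RNAs mt-Rnr1 and mt-Rnr2 rose in OA_T0 vs OA, and mt-Nd4l fell. The log2 fold changes in OA_T0 vs OA were 0.60 for mt-Rnr1 (adjusted p = 0.000309) and 0.57 for mt-Rnr2 (adjusted p = 0.000915). Both also rose in OA_T0 vs MDI, at 0.86 (adjusted p = 3.89e-05) and 0.78 (adjusted p = 0.000224), while 0 of the 15 passed in OA vs MDI. Of 8 histone genes, whose level can follow how RNA was selected, 0 passed in any comparison, with a median of -0.22 in OA_T0 vs OA and 0.04 in OA vs MDI. The part of these RNAs in the synthetase results was not tested.

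**Figure D2:**
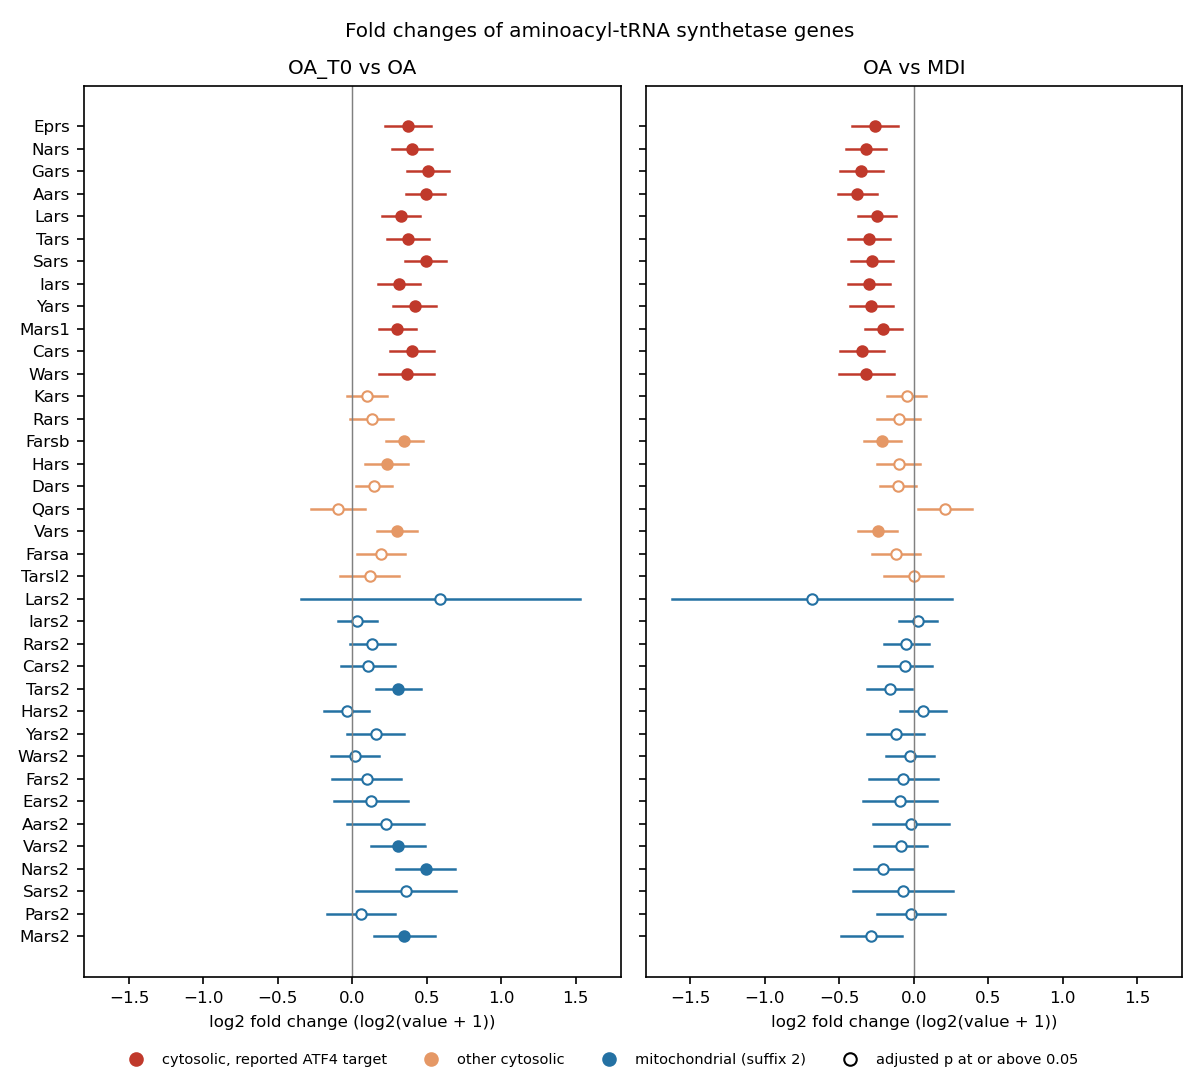
Log2 fold change with its 95% interval for 37 synthetase genes in OA_T0 vs OA (left) and OA vs MDI (right), in the order of level per kb within each class; filled points have an adjusted p below 0.05. All 12 reported ATF4 targets lie above 0 on the left and below 0 on the right, and the interval of Lars2 spans 0 in both.

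The OA libraries stood apart from the others in the summed values. As sums of deposited values, the 21 cytosolic genes reached 143685, 128433 and 145555 in the OA_T0 libraries, 108905, 108874 and 110947 in the OA libraries and 127145, 136170.0 and 127586 in the MDI libraries. Every OA library lay below every library of the other 2 groups, while OA_T0 and MDI overlapped. Gene by gene, 16 cytosolic genes did not overlap between groups in OA_T0 vs OA, all higher, where 17.1% of all tested genes were higher and 15.0% lower without overlap. In OA vs MDI 14 did not overlap, all lower, where 12.6% of all tested genes were lower and 13.4% higher. Within the OA_T0 group, replicate 2 was the lowest for 12 of the 12 reported ATF4 targets: the median log2 difference of the ATF4 targets from the MDI mean was 0.15, -0.04 and 0.17 in OA_T0 replicates 1, 2 and 3.

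**Figure D3:**
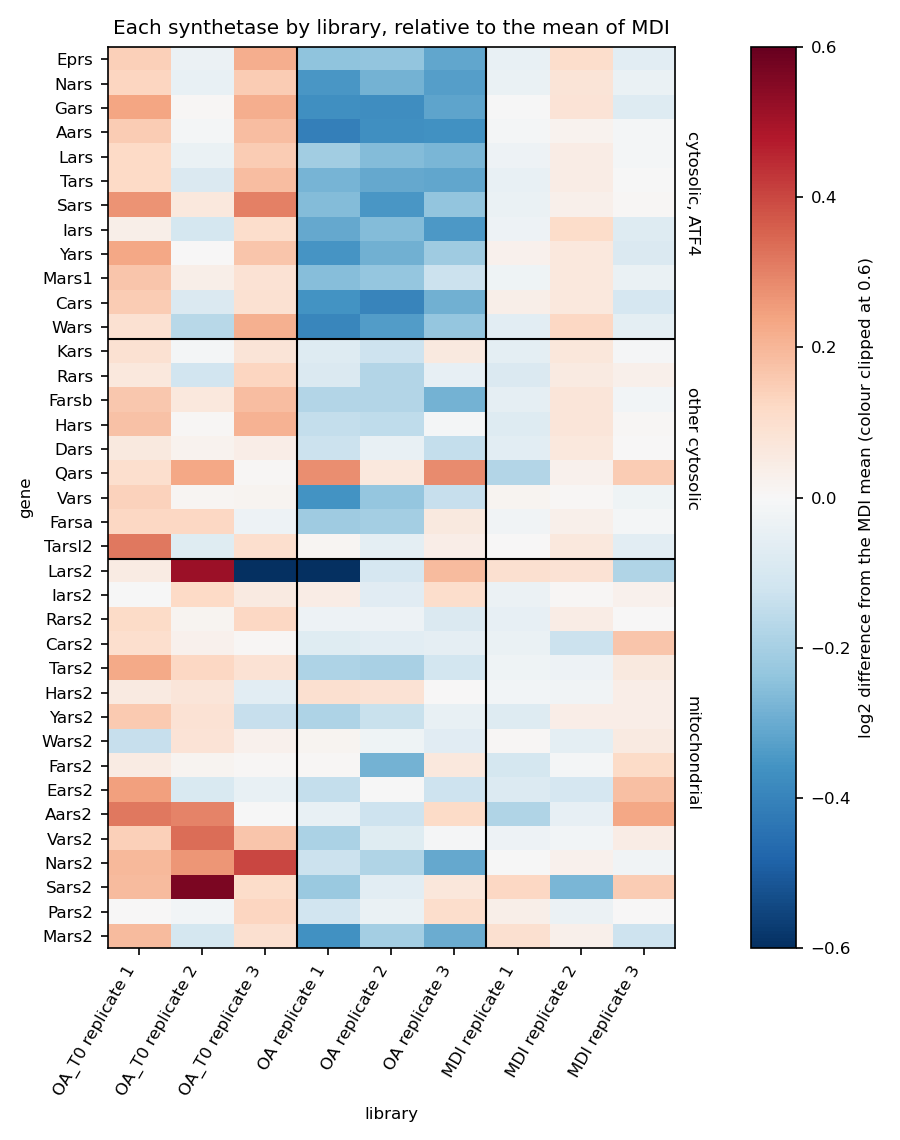
Log2 difference of 37 synthetase genes from their mean in MDI, by library, with genes in rows grouped as reported ATF4 targets, other cytosolic and mitochondrial genes. The OA columns are blue for all 12 ATF4 targets, whose median was 0.15, -0.04 and 0.17 in OA_T0 replicates 1, 2 and 3.

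Outside the multisynthetase complex, 8 reported ATF4 targets changed in both comparisons, and Aars, Gars and Sars had the largest rises of all cytosolic genes in OA_T0 vs OA. Aars, for alanyl-tRNA synthetase, had 17924, 16005 and 18349 in the OA_T0 libraries, 12147, 12477 and 12521 in the OA libraries and 16009, 16384 and 15976 in the MDI libraries. Gars, which makes the glycyl enzyme of both compartments, had 10085, 8595 and 9949 in the OA_T0 libraries, 6625, 6601 and 6860.1 in the OA libraries and 8523, 9041 and 8101 in the MDI libraries. Sars, for the seryl enzyme, had 7404, 6410.2 and 7574 in the OA_T0 libraries, 5126, 4828 and 5222 in the OA libraries and 5979, 6275 and 6183 in the MDI libraries. In all 3 genes the OA libraries lay below both other groups without overlap, and for Sars the OA_T0 libraries lay above the MDI libraries too. Aars had log2 fold changes of 0.49 in OA_T0 vs OA (SE 0.06, adjusted p = 7.59e-05) and -0.38 in OA vs MDI (SE 0.06, adjusted p = 0.00150). Gars had log2 fold changes of 0.51 in OA_T0 vs OA (SE 0.07, adjusted p = 0.000128) and -0.35 in OA vs MDI (SE 0.07, adjusted p = 0.00495). Sars had log2 fold changes of 0.49 in OA_T0 vs OA (SE 0.07, adjusted p = 0.000134) and -0.28 in OA vs MDI (SE 0.07, adjusted p = 0.0178). As means, OA_T0 stood 40.7%, 42.5% and 40.9% above OA for Aars, Gars and Sars, and OA stood 23.2%, 21.7% and 17.7% below MDI. The promoters of Aars and Gars hold the core printed above. Aars shares exon bases with Exosc6 on the same strand, so reads there may be split between the genes.

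Cars, for the cysteinyl enzyme, had 3512, 2971 and 3363 in the OA_T0 libraries, 2462, 2398 and 2580.1 in the OA libraries and 3232, 3298 and 2946 in the MDI libraries. Nars, for the asparaginyl enzyme, had 11773, 10442 and 11973 in the OA_T0 libraries, 8457, 8854 and 8563 in the OA libraries and 10481, 11386 and 10496 in the MDI libraries. Tars, for the threonyl enzyme, had 8359, 7249.6 and 8752 in the OA_T0 libraries, 6333, 6224 and 6199.9 in the OA libraries and 7464, 7931 and 7693 in the MDI libraries. These 3 genes were again lowest in the 3 OA libraries, and their OA_T0 and MDI libraries overlapped. Cars had log2 fold changes of 0.40 in OA_T0 vs OA (SE 0.07, adjusted p = 0.00124) and -0.35 in OA vs MDI (SE 0.07, adjusted p = 0.00681). Nars had log2 fold changes of 0.40 in OA_T0 vs OA (SE 0.06, adjusted p = 0.000636) and -0.32 in OA vs MDI (SE 0.06, adjusted p = 0.00642). Tars had log2 fold changes of 0.37 in OA_T0 vs OA (SE 0.07, adjusted p = 0.00151) and -0.30 in OA vs MDI (SE 0.07, adjusted p = 0.0131). The means of OA were 21.5%, 20.1% and 18.8% below those of MDI for Cars, Nars and Tars.

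Yars, for the tyrosyl enzyme, had 4749, 4058 and 4541 in the OA_T0 libraries, 3168, 3317 and 3488 in the OA libraries and 4120.3, 4223 and 3814 in the MDI libraries. Wars, for the tryptophanyl enzyme, which interferon also induces, had 2309, 1930.3 and 2513 in the OA_T0 libraries, 1653, 1717 and 1847 in the OA libraries and 2074, 2361 and 2081 in the MDI libraries. Both genes were lowest in the OA libraries without overlap, and Wars in OA_T0 replicate 2 stood close to the OA libraries. Yars had log2 fold changes of 0.42 in OA_T0 vs OA (SE 0.07, adjusted p = 0.000714) and -0.29 in OA vs MDI (SE 0.07, adjusted p = 0.0191). Yars shares exon bases with C77080 on the opposite strand, which had log2 fold changes of 0.07 in OA_T0 vs OA (adjusted p = 0.705) and 0.00229 in OA vs MDI (adjusted p = 0.994). Wars had log2 fold changes of 0.36 in OA_T0 vs OA (SE 0.09, adjusted p = 0.0111) and -0.32 in OA vs MDI (SE 0.09, adjusted p = 0.0393). A list of 14 interferon-induced genes summed to 4947 to 11741 in OA_T0, 7728 to 12894 in OA and 14436 to 20083 in MDI. In OA_T0 vs OA 0 of these genes rose and 2 fell, where 8.27% of all tested genes rose and 6.84% fell. In OA vs MDI 0 of 14 passed, with a median log2 fold change of -1.07. All 14 fold changes lay below 0 there, and 12 genes were lower without overlap, against 12.6% of all tested genes. In OA_T0 vs MDI 10 of the 14 fell, against 1.36% of all tested genes. The part of this response in the result for Wars was not tested.

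Within the complex, 4 of 8 members changed in both comparisons. Eprs, for the enzyme that charges glutamate and proline, had 22646, 20008 and 23879.5 in the OA_T0 libraries, 17348, 17423 and 16537 in the OA libraries and 19899.7, 22082 and 19640.1 in the MDI libraries. Iars, for the isoleucyl enzyme, had 8200.1, 7439 and 8605 in the OA_T0 libraries, 6466, 6695 and 6317 in the OA libraries and 7855, 8633 and 7580.4 in the MDI libraries. Lars, for the leucyl enzyme, which also acts as a leucine sensor for mTORC1, had 9191, 8233 and 9397 in the OA_T0 libraries, 7315, 7056 and 6987 in the OA libraries and 8273, 8712 and 8380.4 in the MDI libraries. OA lay below the other 2 groups without overlap in each. Eprs had log2 fold changes of 0.37 in OA_T0 vs OA (SE 0.07, adjusted p = 0.00316) and -0.26 in OA vs MDI (SE 0.07, adjusted p = 0.0421). Iars had log2 fold changes of 0.31 in OA_T0 vs OA (SE 0.07, adjusted p = 0.00505) and -0.30 in OA vs MDI (SE 0.07, adjusted p = 0.0124). Lars had log2 fold changes of 0.33 in OA_T0 vs OA (SE 0.06, adjusted p = 0.00189) and -0.25 in OA vs MDI (SE 0.06, adjusted p = 0.0211). Mars1, for the methionyl enzyme, had 4295, 3913 and 4068 in the OA_T0 libraries, 3204, 3252 and 3502 in the OA libraries and 3762, 3994 and 3722 in the MDI libraries, again with OA lowest. Mars1 had log2 fold changes of 0.30 in OA_T0 vs OA (SE 0.06, adjusted p = 0.00301) and -0.21 in OA vs MDI (SE 0.06, adjusted p = 0.0483). Mars1 shares exon bases with Ddit3, an ATF4-induced transcription factor on the opposite strand, which had log2 fold changes of 0.64 in OA_T0 vs OA (adjusted p = 0.000348) and -0.43 in OA vs MDI (adjusted p = 0.0128). The libraries were strand-specific per the labels, but whether the counting used strand is not given in the sources used here, so reads of the pair may be mixed.

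The other 4 complex members did not pass in either comparison. Dars, the aspartyl enzyme, had log2 fold changes of 0.15 in OA_T0 vs OA (SE 0.06, adjusted p = 0.0937) and -0.11 in OA vs MDI (SE 0.06, adjusted p = 0.305). For Kars, the lysyl enzyme of both compartments, they were 0.10 in OA_T0 vs OA (SE 0.06, adjusted p = 0.312) and -0.05 in OA vs MDI (SE 0.06, adjusted p = 0.726). Rars, the arginyl enzyme, had log2 fold changes of 0.13 in OA_T0 vs OA (SE 0.07, adjusted p = 0.222) and -0.10 in OA vs MDI (SE 0.07, adjusted p = 0.428). Qars, the glutaminyl enzyme, had 3072, 3357 and 2877 in the OA_T0 libraries, 3476, 2988 and 3477 in the OA libraries and 2534, 2910.3 and 3175 in the MDI libraries. Its fold changes had the opposite sign to those of the other cytosolic genes, with the groups overlapping, and log2 fold changes of -0.09 in OA_T0 vs OA (SE 0.09, adjusted p = 0.494) and 0.21 in OA vs MDI (SE 0.09, adjusted p = 0.171). Of the 13 cytosolic genes outside the complex, 11 rose in OA_T0 vs OA and 10 fell in OA vs MDI. Over all tested genes, 8.27% rose and 3.36% fell in these comparisons. The 4 complex members that passed are all reported ATF4 targets, and the 4 that did not pass are not. A difference by complex membership was not tested, nor was it separated from the ATF4 marking. By enzyme class, 7 of 9 class I genes rose in OA_T0 vs OA and 7 fell in OA vs MDI, and 7 of 11 class II genes rose and 6 fell, with Eprs, which holds both folds, left out.

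Among cytosolic genes not marked as ATF4 targets, Farsb and Vars changed in both comparisons and Hars in one. Farsb, for the beta subunit of the phenylalanyl enzyme, had 3957, 3704 and 4019.8 in the OA_T0 libraries, 3133, 3130.2 and 2909 in the OA libraries and 3406, 3723 and 3496 in the MDI libraries. Vars, for the valyl enzyme, had 4955, 4532 and 4548 in the OA_T0 libraries, 3503, 3827 and 4080.3 in the OA libraries and 4548, 4516 and 4421 in the MDI libraries. The OA libraries of both genes lay below the other groups without overlap. Farsb had log2 fold changes of 0.35 in OA_T0 vs OA (SE 0.06, adjusted p = 0.00106) and -0.21 in OA vs MDI (SE 0.06, adjusted p = 0.0416). Vars had log2 fold changes of 0.30 in OA_T0 vs OA (SE 0.06, adjusted p = 0.00474) and -0.24 in OA vs MDI (SE 0.06, adjusted p = 0.0296). Farsa, for the alpha subunit of the same phenylalanyl enzyme as Farsb, did not pass, at log2 fold changes of 0.19 in OA_T0 vs OA (SE 0.07, adjusted p = 0.100) and -0.12 in OA vs MDI (SE 0.07, adjusted p = 0.402). Hars, for the histidyl enzyme, had 2585, 2299 and 2645 in the OA_T0 libraries, 2078, 2061 and 2275 in the OA libraries and 2170.5, 2409 and 2299.8 in the MDI libraries. OA_T0 lay above OA without overlap, and OA and MDI overlapped. Hars had log2 fold changes of 0.23 in OA_T0 vs OA (SE 0.07, adjusted p = 0.0341) and -0.10 in OA vs MDI (SE 0.07, adjusted p = 0.442). Tarsl2 did not pass, at log2 fold changes of 0.12 in OA_T0 vs OA (SE 0.09, adjusted p = 0.432) and -0.00118 in OA vs MDI (SE 0.09, adjusted p = 0.996).

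The calls in OA vs MDI rested on single libraries more than those in OA_T0 vs OA. Without MDI replicate 2, only Aars (adjusted p = 0.0147) and Gars (0.0454) still fell, the other 12 reaching adjusted p = 0.0552 to 0.219. With no filter on low values, which raised the number of tested genes to 27045, 4 cytosolic genes fell in OA vs MDI. With MDI replicate 1 left out 8 cytosolic genes fell, and 6 with either OA replicate 1 or OA replicate 2 left out. The count was 8 without both libraries low in CT010467.1, OA replicate 1 and OA_T0 replicate 3. In OA_T0 vs OA, the count that rose stayed between 13 and 16 when any 1 library was left out, and was 11 without both OA replicate 1 and OA_T0 replicate 3. Wars lost its call there without OA replicate 1 or OA_T0 replicate 1 (adjusted p = 0.0615 at most), and Hars when either of OA replicates 1 and 2 or of OA_T0 replicates 1 and 3 was left out (0.144 at most).

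Of the 17 mitochondrial synthetase genes, 4 rose and 0 fell in OA_T0 vs OA, with a median log2 fold change of 0.14 (0.13 without Lars2), and 7 were higher without overlap, against 8.27% of all tested genes that rose and 17.1% that were higher without overlap. In OA vs MDI 0 of 17 passed, with a median of -0.07 with and without Lars2. Mars2, Nars2 and Tars2 were lower without overlap, and 3 of 17 lies near the 12.6% of all tested genes. At an unadjusted p below 0.05, 3 genes (Tars2, Nars2, Mars2) passed, again near the 21.2% of all tested genes. Nars2, for the asparaginyl enzyme of mitochondria, had 378, 397 and 436 in the OA_T0 libraries, 302, 291 and 267 in the OA libraries and 329, 336 and 326 in the MDI libraries. Tars2, for the threonyl enzyme, had 869, 810.3 and 789 in the OA_T0 libraries, 653, 649 and 689 in the OA libraries and 730.0, 727 and 774 in the MDI libraries. In both genes OA lay lowest and OA_T0 highest, with no overlap among the 3 groups. Nars2 had log2 fold changes of 0.49 in OA_T0 vs OA (SE 0.09, adjusted p = 0.00261) and -0.21 in OA vs MDI (SE 0.09, adjusted p = 0.220). Tars2 had log2 fold changes of 0.31 in OA_T0 vs OA (SE 0.07, adjusted p = 0.00862) and -0.16 in OA vs MDI (SE 0.07, adjusted p = 0.197). Mars2, for the methionyl enzyme, had 554, 451 and 519 in the OA_T0 libraries, 378, 421 and 395 in the OA libraries and 519, 496 and 445 in the MDI libraries. Vars2, for the valyl enzyme, had 529.7, 606 and 538 in the OA_T0 libraries, 421, 456 and 477 in the OA libraries and 469.8, 474 and 495 in the MDI libraries. OA lay below OA_T0 without overlap in both, and OA and MDI overlapped for Vars2 but not for Mars2. Mars2 had log2 fold changes of 0.35 in OA_T0 vs OA (SE 0.10, adjusted p = 0.0254) and -0.29 in OA vs MDI (SE 0.10, adjusted p = 0.0917). Vars2 had log2 fold changes of 0.30 in OA_T0 vs OA (SE 0.08, adjusted p = 0.0255) and -0.09 in OA vs MDI (SE 0.08, adjusted p = 0.610). The call of Nars2 held without any 1 library, while Tars2 was lost without OA_T0 replicate 1 (adjusted p = 0.0626), Mars2 when OA replicate 1 or either of OA_T0 replicates 1 and 3 was left out (at most 0.136) and Vars2 when replicate 1 or 2 of either group was left out (at most 0.125).

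Among the mitochondrial genes that passed in neither comparison, 11 others are given here beside Lars2. They had log2 fold changes between -0.04 (Hars2) and 0.36 (Sars2) in OA_T0 vs OA and between -0.12 (Yars2) and 0.06 (Hars2) in OA vs MDI. Sars2, for the seryl enzyme of mitochondria, had 176, 228 and 166 in the OA_T0 libraries, 132, 148 and 162 in the OA libraries and 168, 127 and 171 in the MDI libraries. Its OA_T0 libraries lay above the OA libraries, with OA_T0 replicate 2 far above the other 2. Aars2, for the alanyl enzyme, had 457, 451 and 367 in the OA_T0 libraries, 356, 337 and 397 in the OA libraries and 323, 355 and 430.4 in the MDI libraries, and its groups overlapped. The histidyl, isoleucyl and tryptophanyl genes Hars2, Iars2 and Wars2 had log2 fold changes between -0.04 and 0.06 in both comparisons. Hars2 shares exon bases with Hars on the opposite strand, and its log2 fold change was -0.04 in OA_T0 vs OA (SE 0.07, adjusted p = 0.754) where Hars rose.

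The ratio of a cytosolic gene to the mitochondrial gene for the same amino acid, each in deposited values per kb of its longest protein-coding transcript, was compared between groups in 19 pairs. In OA_T0 vs OA it was higher without overlap in 3 pairs and lower in 1. In OA vs MDI it was lower without overlap in 7 pairs and higher in 1. The pair that went the other way was Tarsl2 to Tars2 in both comparisons. Eprs, Fars2 and Tars2 each entered more than 1 pair, and the pair of Lars and Lars2 is included. No share was worked out for ratios of other genes, so these counts have no background beside them. The tyrosyl pair Yars to Yars2 had ratios of 8.24 ± 1.11 in OA_T0, 6.84 ± 0.0450 in OA and 7.67 ± 0.613 in MDI (SD, n = 3 each), lower in OA than in both other groups. The ratio of Eprs to Pars2, the mitochondrial prolyl gene, was 60.6 ± 3.34 in OA_T0, 48.8 ± 5.06 in OA and 57.8 ± 5.06 in MDI, with the same order and no overlap of OA with the others. For alanine, Aars to Aars2 was 24.2 ± 4.41 in OA_T0, 19.9 ± 1.61 in OA and 25.8 ± 3.74 in MDI, with OA below MDI and the OA_T0 libraries overlapping OA. For methionine, Mars1 to Mars2 was 30.8 ± 1.92 in OA_T0, 31.8 ± 2.21 in OA and 30.1 ± 2.21 in MDI, with all groups overlapping. For asparagine, Nars to Nars2 was 39.0 ± 3.51 in OA_T0, 41.5 ± 2.82 in OA and 44.9 ± 1.50 in MDI, lower in OA_T0 than in MDI without overlap. With 3 libraries against 3, an exact permutation test of any 1 ratio cannot go below p = 0.10, so these are descriptions.

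Cells given oleic acid with T0901317 were also set against vehicle cells. In OA_T0 vs MDI, limma called 0 of 38 synthetase genes, where 1.25% of all tested genes rose and 1.36% fell, and 5 of 38 had an unadjusted p below 0.05, against 18.5% of all tested genes. The fold changes of all 21 cytosolic genes lay above 0 on the log2 scale, with a median of 0.08, and their 95% intervals together spanned -0.14 to 0.35. Sars came nearest to passing, at a log2 fold change of 0.21 in OA_T0 vs MDI (SE 0.07, adjusted p = 0.107), with an interval of 0.07 to 0.35. It passed without OA_T0 replicate 2, at adjusted p = 0.0237. Gars had a log2 fold change of 0.16 in OA_T0 vs MDI (SE 0.07, adjusted p = 0.231), and Farsb of 0.14 in OA_T0 vs MDI (SE 0.06, adjusted p = 0.231). Of the mitochondrial genes, Nars2 had a log2 fold change of 0.29 in OA_T0 vs MDI (SE 0.09, adjusted p = 0.127) and Vars2 of 0.22 in OA_T0 vs MDI (SE 0.08, adjusted p = 0.195), both with OA_T0 above MDI without overlap. In all, 4 of the 38 genes were higher in OA_T0 than in MDI without overlap and 0 lower, where 13.3% of all tested genes were higher and 10.2% lower. A p that misses the threshold does not show that the levels in OA_T0 and MDI were the same.

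Of 10 partners of the synthetases, fixed as complex scaffolds, a tRNA exporter and related factors, 3 rose in OA_T0 vs OA and 1 fell in OA vs MDI. Over all tested genes, 8.27% rose in OA_T0 vs OA and 3.36% fell in OA vs MDI. Xpot, which exports tRNA from the nucleus, had 6055, 5452 and 5798 in the OA_T0 libraries, 4403, 4769 and 4527 in the OA libraries and 5479.8, 6024 and 5442 in the MDI libraries. OA was lowest without overlap, at log2 fold changes of 0.34 in OA_T0 vs OA (adjusted p = 0.00186) and -0.31 in OA vs MDI (adjusted p = 0.00708). The scaffold Aimp2 had log2 fold changes of 0.36 in OA_T0 vs OA (adjusted p = 0.00188) and -0.22 in OA vs MDI (adjusted p = 0.0547). For Eef1e1 the log2 fold changes were 0.38 in OA_T0 vs OA (adjusted p = 0.00444) and -0.19 in OA vs MDI (adjusted p = 0.169). Aimp1, the remaining scaffold, did not pass, at log2 fold changes of 0.15 in OA_T0 vs OA (adjusted p = 0.123) and -0.07 in OA vs MDI (adjusted p = 0.562). Of 19 other genes of mitochondrial translation and gene expression, 2 rose in OA_T0 vs OA and 1 fell in OA vs MDI. These counts lie near the shares over all tested genes, of which 8.27% rose and 3.36% fell in these comparisons. Lrpprc, which stabilises mitochondrial messenger RNA, had log2 fold changes of 0.26 in OA_T0 vs OA (adjusted p = 0.00595) and -0.21 in OA vs MDI (adjusted p = 0.0373), and Gfm1, an elongation factor, had a log2 fold change of 0.17 in OA_T0 vs OA (adjusted p = 0.0399).

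The wider ATF4 list moved in the same directions as the cytosolic synthetases, with a median further from 0. Of 20 genes, 19 rose in OA_T0 vs OA (median log2 fold change 0.66) and 17 fell in OA vs MDI (median -0.47), and 4 rose in OA_T0 vs MDI: Atf4, Asns, Eif4ebp1 and Ddit4. Over all tested genes, 8.27% rose in OA_T0 vs OA, 3.36% fell in OA vs MDI and 1.25% rose in OA_T0 vs MDI. Atf4 itself had 15499, 13287 and 15388 in the OA_T0 libraries, 9382, 9128 and 9316 in the OA libraries and 11968, 12381 and 11439 in the MDI libraries. Asns, asparagine synthetase, had 12158, 10853 and 12032 in the OA_T0 libraries, 7525, 7273 and 7538 in the OA libraries and 9579, 9931 and 9405 in the MDI libraries. Trib3, a pseudokinase induced by ATF4, had 3887, 2955 and 4162 in the OA_T0 libraries, 1749, 1674 and 1669.9 in the OA libraries and 3234, 3176 and 3133 in the MDI libraries. OA was lowest without overlap in all 3 genes, and OA_T0 replicate 2 was the lowest OA_T0 library of each. Their log2 fold changes in OA_T0 vs OA were 0.66 for Atf4, 0.65 for Asns and 1.10 for Trib3, each with adjusted p = 7.67e-06 or less. In OA vs MDI they were -0.36, -0.37 and -0.91, each with adjusted p = 0.00343 or less. Chac1, which degrades glutathione, had log2 fold changes of 1.10 in OA_T0 vs OA (adjusted p = 3.04e-06) and -0.78 in OA vs MDI (adjusted p = 0.000208). Of 13 immediate early genes, which respond to handling and to serum, 8 rose in OA_T0 vs OA and 6 fell in OA vs MDI. Over all tested genes, 8.27% rose and 3.36% fell in these comparisons. Fosb and Fosl1 had fold changes of the opposite sign in both, without passing. The part of the immediate early genes in the synthetase results was not tested.

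Of the 4 eIF2 kinase genes, 0 passed in OA_T0 vs OA and 1 rose in OA vs MDI. Eif2ak3, the kinase PERK of the endoplasmic reticulum, had log2 fold changes of -0.14 in OA_T0 vs OA (adjusted p = 0.387) and 0.49 in OA vs MDI (adjusted p = 0.00826). Eif2ak4, the amino acid sensor GCN2, had log2 fold changes of 0.09 in OA_T0 vs OA (adjusted p = 0.487) and 0.08 in OA vs MDI (adjusted p = 0.630). Eif2ak2, the interferon-induced kinase PKR, had a log2 fold change of -0.61 in OA_T0 vs MDI (adjusted p = 0.0110). Kinase activity and eIF2 phosphorylation were not measured here.

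Lars2 stood apart from the other members. It had 84849, 116869 and 45432 in the OA_T0 libraries, 18478, 76328 and 93490.4 in the OA libraries and 87518, 86844 and 72297 in the MDI libraries. OA replicate 1 was the lowest library by far and OA_T0 replicate 3 the next, so the groups overlapped, at log2 fold changes of 0.59 in OA_T0 vs OA (SE 0.44, adjusted p = 0.399) and -0.69 in OA vs MDI (SE 0.44, adjusted p = 0.413). The same libraries were the lowest for CT010467.1, which made up 5.27%, 5.96% and 3.06% of the total in the OA_T0 libraries, 0.649%, 5.25% and 5.51% in the OA libraries and 4.45%, 5.25% and 4.40% in the MDI libraries. Lars2 amounted to 5.51%, 6.64% and 5.37% of CT010467.1 in the OA_T0 libraries, 10.5%, 5.05% and 5.77% in the OA libraries and 7.29%, 5.79% and 5.69% in the MDI libraries. No alignment between the Lars2 transcript and CT010467.1 was found with BLAST at an E-value of 1e-05, nor for any of the other synthetase transcripts. A wider search, chosen after that one gave no match, set the same transcripts against 17 transcripts of 11 genes picked as ribosomal RNA or similar to it. It gave 1 match: 72 bases of the Lars2 transcript aligned to Gm15564, a noncoding gene of that set, at 98.6% identity, while the other 37 synthetase transcripts had none. Gm15564 itself lay between 0 and 3.26 in deposited values. The part of such reads in the value of Lars2 was not tested.

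**Figure D4:**
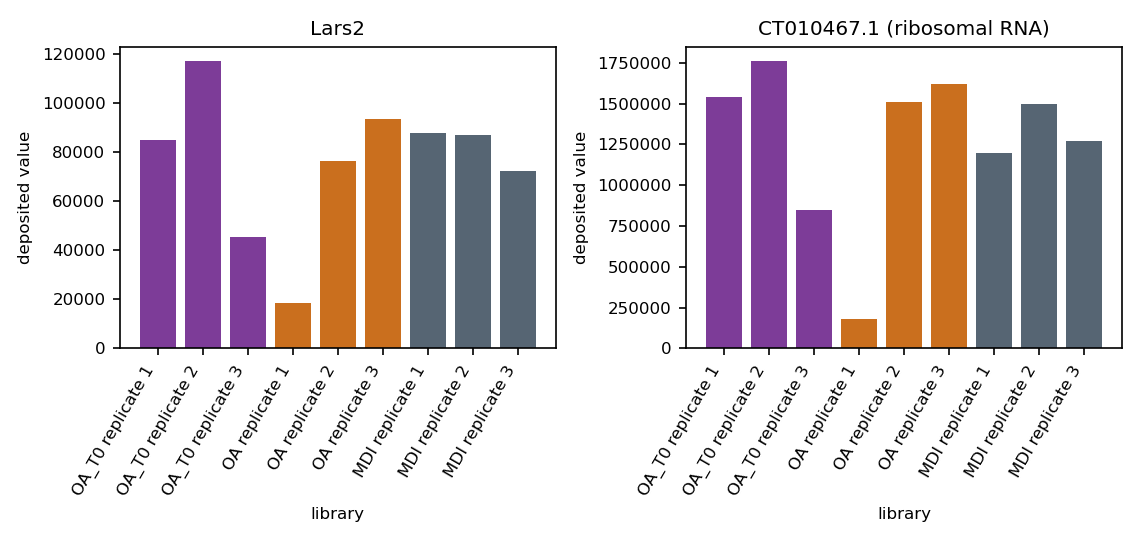
Deposited values of Lars2 (left) and of the ribosomal RNA gene CT010467.1 (right) in each library. OA replicate 1 is lowest and OA_T0 replicate 3 next lowest in both panels.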

How the data were processed

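The deposited table holds a signal for each gene, read counts that the authors normalised per library, as its non-whole values show. Per the submitters' processing notes, CASAVA 1.8.2, TopHat, HTSeq, DESeq2 and the build mm9 were named, with no role for each. Because 62.4% to 70.5% of low values (5 to 50 steps) were whole multiples of 1 step within 0.05, whole reads were not recovered and no count test was run. Estimated depth is the total divided by that step.

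Values were taken as log2(value + 1), which understates changes of low genes. The 15002 genes with a mean of at least 10 were tested with limma 3.58.1 (R 4.3.3), letting the variance follow the mean and pooling it over the 3 groups. Two-sided p-values were adjusted per comparison (Benjamini-Hochberg), with 0.05 as the threshold. The test was checked on simulated data in which every planted change was larger than those of the synthetase genes that passed. That check therefore does not show how often changes of their size are found. The 3 comparisons share libraries.

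The members and lists were chosen with earlier results of these data known, and the counts for reported ATF4 targets and for other cytosolic genes were added after the fits were seen. Of 120 list genes, 108 were found by symbol, 8 by synonym, and 4 were not analysed here. Values per library are given for members that passed in at least 2 comparisons and for selected others named after their values were seen, and a few partner, ATF4-related and LXR genes are named whatever their result (Atf4, Ddit3, Trib3, Asns, Chac1, Xpot, Aimp1, Aimp2, Eef1e1, Eif2ak3, Eif2ak4 and Abca1); most other list genes are only counted. Lengths and exon overlaps came from GENCODE M21, where 15 members share exon bases with another gene, so their values may hold reads of a neighbour. Promoters came from RefSeq, GRCm38.p6. Of the mitochondrial members, 1 counts in the totals but is not reported here by itself. Transcripts were compared with BLAST 2.17.0. Positions are given only for the RefSeq promoter windows, since the notes name an older build for the deposited table. Alternatives were quantile normalisation, totals made equal, pseudocounts of 0.5 and 5, a filter at 50 or none, only the groups compared, a replicate block, robust variance and each library left out. Added after the data were seen were leaving out both OA replicate 1 and OA_T0 replicate 3, and equal totals without CT010467.1.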

Additional observations from a re-analysis of the deposited data

How the results depend on the processing

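No synthetase gene that passed turned its direction under any of the 20 alternatives, of which 2 were chosen after seeing the data. In OA vs MDI the cytosolic genes that fell numbered 14 as reported. There were 4 with no filter on low values, 9 with a replicate block, 8 without both OA replicate 1 and OA_T0 replicate 3, and 2 to 14 when 1 library was left out. For the reported ATF4 targets, 12 as reported, the count was 4 with no filter and 2 to 12 with 1 library left out. For the other cytosolic genes, 2 as reported, it was 0 with no filter, 1 with equal totals, 0 with a replicate block, 0 without both libraries and 0 to 2 with 1 library left out.

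In OA_T0 vs OA the mitochondrial genes that rose, 4 as reported, numbered 1 without both libraries and 1 to 4 with 1 library left out. The other cytosolic genes that rose, 3 as reported, numbered 1 without both libraries and 2 to 4 with 1 left out. In OA_T0 vs MDI the cytosolic genes that rose, 0 as reported, numbered 0 to 1, with Sars passing without OA_T0 replicate 2. With no filter, genes near the floor of detection entered both the variance fit and the adjustment. Leaving out a library left fewer samples. The causes of the changes in these counts were not tested.

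Same-numbered libraries of different groups had correlations of deviations between -0.256 and 0.259, and different-numbered ones between -0.23 and 0.25. The main fit did not take the replicate numbers to pair the samples. These ranges do not settle whether they do. Precision is limited by 3 libraries per group, and standard errors reached higher values among the mitochondrial genes than among the cytosolic ones.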
